A study of Homo sapiens with 32 samples.

Results

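The series holds 2502262 crosslinked bases outside the mitochondrial chromosome, each a position and strand listed in at least 1 of 12 libraries. Of these, 13208 (0.528%) were listed in both Alyref 2 and Alyref 3 and in no Chtop, Nxf1 or Control library. They are called Alyref-only bases here. The listing of reads in these libraries is what chose them, so the Alyref values at them and the zeros of the other groups are the rule itself and are given without a test. The libraries come from individual-nucleotide resolution crosslinking and immunoprecipitation (iCLIP), in which RNA is crosslinked to protein with UV light, the tagged protein is precipitated, and the cDNA tends to stop next to the crosslinked base. All 4 groups were a kidney-derived laboratory line, FlipIn HEK293T in the sample labels and FlpIn-293 in the growth protocol, fitted with one recombination site for transgenes, and all were precipitated with an anti-FLAG antibody. The groups expressed FLAG-tagged Alyref or Chtop (tetracycline at 10 ng/mL for 48 h), FLAG-tagged Nxf1 (5 ng/mL for 48 h) or an empty FLAG construct as Control, whose dose the labels do not give. The tagged proteins came from a transgene beside the cells' own copies, and each group had 3 libraries.

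Alyref is an RNA-binding adaptor of TREX, the complex that couples transcription and processing of mRNA to its export from the nucleus. It contacts the cap-binding complex at the 5′ end of new transcripts and the exon junction complex, which is deposited upstream of exon-exon junctions during splicing. Chtop is another TREX subunit, and Nxf1 is the export receptor to which the mRNA is handed over. The question here is where on transcripts the bases recurring in Alyref libraries alone lay.

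Depth differed widely and bears on every count below. The Alyref libraries held 81307, 631704 and 603291 tags (deduplicated reads) for replicates 1, 2 and 3, the Chtop libraries 47052, 538844 and 429573, the Nxf1 libraries 8134, 119191 and 179346, and the Control libraries 7017, 46628 and 36978. Between 97.4% and 99.5% of the listed bases of a library carried a single tag, so absence of a base from a shallow library says little about that base. Control 1 stood apart from the other Control libraries, with 20.9% of its bases in coding sequence against 7.87% and 3.94%. VIM and EEF1A1, which this line makes, had 227 and 173 tags over the 12 libraries. Genes that mark other cells had few, with 1 tag for ALB, 12 for HBB, 3 for PTPRC and 0 for INS. NEFM, NEFL and LDHB, further genes taken as markers of the line, were sparse, with 1, 44 and 9 tags.

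Stretches of sequence with many Alyref-only bases are printed here because they show how densely these bases can lie. Members were joined into a stretch where gaps were at most 15 nt. Each sequence is the RNA strand as DNA letters, 5′ to 3′, in build GRCh37, from 5 nt before to 5 nt after the stretch, and capitals mark the Alyref-only bases.
chr6:27573429-27573536, minus strand, 24 members: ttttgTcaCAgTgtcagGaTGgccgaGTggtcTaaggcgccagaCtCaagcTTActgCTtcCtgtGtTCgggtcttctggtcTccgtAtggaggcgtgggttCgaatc
XIST exon, chrX:73057275-73057341, minus strand, 16 members: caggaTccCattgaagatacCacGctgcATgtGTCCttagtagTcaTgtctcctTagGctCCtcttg
chr1:149298576-149298640, minus strand, 15 members: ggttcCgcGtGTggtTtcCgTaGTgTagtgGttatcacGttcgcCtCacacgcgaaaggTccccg
chr14:21121266-21121324, minus strand, 12 members: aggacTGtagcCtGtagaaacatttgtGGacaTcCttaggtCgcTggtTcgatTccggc
The 3 stretches without a gene name lie outside every gene of the annotation used. The longest of them took 271 CPM (tags per 1000000 tags of the library outside the mitochondrial chromosome) in Alyref 1, 91.98 in Alyref 2 and 96.3 in Alyref 3, counting all tags between its ends. The same stretch took 286, 150.9 and 81.5 CPM in Control 1, 2 and 3, from 2, 7 and 3 tags. Its Nxf1 values were 123, 135 and 39.2 CPM, and only Chtop was low, at 0, 9.30 and 2.33 CPM. The Alyref and Control values therefore overlapped over this stretch, although no Control tag fell on its 24 capital letters. The XIST stretch took 69.8 to 86.3 CPM in Alyref, 22.3 to 44.3 in Chtop, 0 to 8.44 in Nxf1, and 143, 0 and 0 in the Control, where the first value is 1 tag.

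Most Alyref-only bases rested on the fewest reads the rule allows. At 12443 of them (94.2%) Alyref 2 and Alyref 3 had 1 tag each, 624 had 3 tags over both libraries, and the highest sum was 13. At least 2 tags in each library were found at 79 bases (0.598%). Together they took 27417 tags, or 2.22% of the tags of Alyref 2 and 3. Just outside the rule lay 11191 bases listed in both of these libraries and also in another group, called shared Alyref bases here. Of the shared bases 4143 (37.02%) had only 1 tag in all 9 other libraries together, so that a single read separated them from the Alyref-only bases. A further 1106787 bases were listed in 1 of Alyref 2 and 3 and in no other group, called single-library Alyref bases. Applied to the other groups, the rule found 12986 Chtop-only, 837 Nxf1-only and 35 Control-only bases, in the order Alyref, Chtop, Nxf1, Control in which summed depth also falls.

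The 10 bases with the most Alyref tags are shown with 10 nt on either side, the Alyref-only base in capitals, because they share a feature of sequence.
NEAT1, chr11:65207921-65207941, plus: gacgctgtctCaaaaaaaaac
DUT 3′ UTR, chr15:48634433-48634453, plus: aaaagatcatTaaaaaaaaac
GATD3 3′ UTR, chr21:45564921-45564941, plus: ctggcaggccCtttttttttt
NPLOC4 intron, chr17:79569409-79569429, minus: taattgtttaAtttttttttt
RBBP7, chrX:16871715-16871735, minus: ctgtagtttgAtttttttttt
GAS5, chr1:173837117-173837137, minus: accatactgtCttttcgaggt
AKT1 intron, chr14:105260889-105260909, minus: aaaacagagtAttttttttta
SPG7, chr16:89585390-89585410, plus: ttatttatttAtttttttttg
RPS16 5′ UTR, chr19:39926578-39926598, minus: cctagctttcCttttccggtt
MAT2A 3′ UTR, chr2:85772051-85772071, plus: cttttaaaagAtttttttttt
The base in NEAT1, a nuclear long non-coding RNA that scaffolds paraspeckles, had 0, 5 and 8 tags in Alyref 1, 2 and 3. The base in GAS5, a host gene of small nucleolar RNAs, was the only one of the 10 also listed in Alyref 1, with 4, 2 and 5 tags. The GATD3 base also lies in an overlapping annotated gene. In 8 of the 10 the base was directly followed by 8 or more identical letters. Over all Alyref-only bases this held for 406 (3.07%, 95% Wilson interval 2.79 to 3.38). The share was 2.58% (2.32 to 2.87) at bases with 2 tags, 5.61% (4.06 to 7.70) at 3 tags, 29.4% (22.0 to 38.1) at 4 to 5 tags and 68.2% (47.3 to 83.6) at 6 to 13 tags. Bases chosen likewise for Chtop had 2.85% in all and 52.4% (32.4 to 71.7) at 6 to 12 tags. In the files a crosslink is placed at a deletion in the read if it has one, otherwise at the base before the read, and the part of this assignment in the runs was not tested. Uracil fell along the same classes, from 65.6% (64.7 to 66.4) at 2 tags to 53.7% (49.8 to 57.6) at 3 and 34.0% (26.7 to 42.2) at 4 to 13. The few bases with many tags thus differed in sequence from the bulk, and all further shares count each base once.

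Whether bases picked in some libraries come back in a library that took no part in the choice was asked by leaving out replicate 1. When the rule was applied to replicates 2 and 3 of all groups, 13373 bases were found. Alyref 1 listed 497 of them (3.72%, exact 95% interval 3.402 to 4.05), Chtop 1 listed 129 (0.965%, 0.806 to 1.15), Control 1 listed 25 (0.187%, 0.121 to 0.276) and Nxf1 1 listed 17 (0.127%, 0.0741 to 0.203). Depth alone would favour Alyref 1, so the shares were also divided by depth. Per 100000 tags of the library, 4.58% of the bases recurred in Alyref 1 (4.19 to 4.99), against 2.67% in Control 1 (1.73 to 3.94), 2.05% in Chtop 1 (1.72 to 2.44) and 1.57% in Nxf1 1 (0.914 to 2.51). The interval of Alyref 1 lay above the other 3. For the bases chosen likewise for Chtop, the order changed to 3.27% in Nxf1 1 (2.28 to 4.54), 3.05% in Chtop 1 (2.63 to 3.51), 1.65% in Alyref 1 (1.42 to 1.91) and 1.51% in Control 1 (0.828 to 2.54). These intervals cover counting error only, with 1 library per group. Tags also lay near the 13373 bases chosen for Alyref. At single offsets of 10 to 30 nt from them, a mean of 176 bases was listed in Alyref 1 and 59.7 in Chtop 1. These means were 18.5 in Control 1 and 14.1 in Nxf1 1, near the 25 and 17 at the bases themselves. Recurrence in Control 1 and Nxf1 1 thus hardly set the bases apart from their surroundings. This was counted for replicate 1 only.

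With the deeper replicates left out the shares were far higher, and since a share cannot pass 100%, dividing it by depth understates the deepest libraries. The values in this paragraph and the next are therefore -ln(1 - share), in percent per 100000 tags, a scaling added after the data were seen. With replicate 2 left out, 2493 bases were chosen from replicates 1 and 3, and 31.6% of them recurred in Alyref 2. On the log form this was 6.03 in Alyref 2 (5.61 to 6.46), 9.10 in Nxf1 2 (8.02 to 10.3), 5.52 in Control 2 (4.24 to 7.06) and 2.86 in Chtop 2 (2.57 to 3.18). With replicate 3 left out, 27.6% of 2631 bases recurred in Alyref 3. The log form was 5.36 in Alyref 3 (4.97 to 5.77), 5.05 in Nxf1 3 (4.41 to 5.75), 4.90 in Control 3 (3.598 to 6.51) and 2.89 in Chtop 3 (2.58 to 3.23). In all 3 arrangements Alyref exceeded Chtop with intervals that did not overlap. The intervals of the Control overlapped those of Alyref with replicates 2 and 3 left out, and Nxf1 lay above Alyref with replicate 2 left out and overlapped it with replicate 3 left out.

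**Figure D1:**
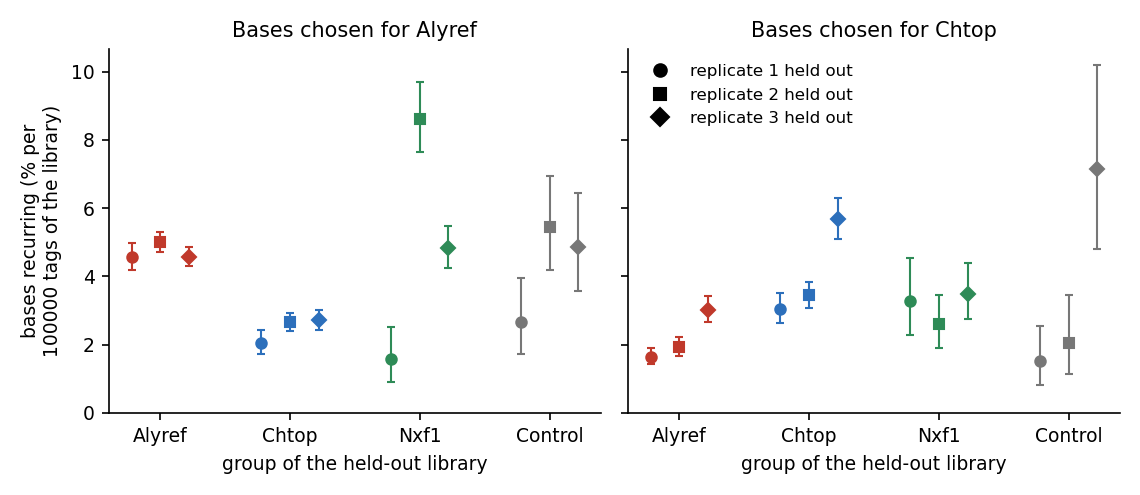
Share of bases chosen without a library that recurred in that library, in percent per 100000 of its tags, for bases chosen for Alyref (left) and Chtop (right); circles, squares and diamonds stand for replicates 1, 2 and 3 held out, and bars for exact 95% intervals. In the left panel Alyref lies between 4.58 and 5.01, Chtop between 2.05 and 2.72, and Nxf1 reaches 8.63; the shares are divided by depth as they are, without the log form.

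The kind of region mattered for this recurrence. Among bases in coding sequence (CDS) chosen without replicate 2, the log form was 3.02 in Alyref 2 (2.52 to 3.59), 1.70 in Chtop 2 (1.31 to 2.16), 0.673 in Nxf1 2 (0.247 to 1.47) and 0.858 in Control 2 (0.177 to 2.51). Without replicate 3 the CDS values were 2.32 in Alyref 3, 2.20 in Chtop 3 and 0.551 in Nxf1 3, and Control 3 had 0 of 1021 bases, with an exact upper bound of 0.982. The intervals of Alyref thus lay above those of Nxf1 and the Control in these 2 arrangements, and above that of Chtop in 1 of them. With replicate 1 left out Alyref 1 had 2.18 in CDS (1.79 to 2.64), above Chtop 1 with 1.16 (0.796 to 1.62). There its interval overlapped those of Nxf1 1 with 0.810 (0.221 to 2.07) and Control 1 with 1.41 (0.517 to 3.06). Around transcript starts, from the base before the start to 100 nt after it, the values were 4.79, 6.90 and 5.14 in Alyref for replicates 1, 2 and 3 left out. Chtop had 2.10, 1.80 and 1.38 there, and its intervals lay below those of Alyref with replicates 2 and 3 left out but overlapped with replicate 1 left out. Nxf1 had 1.34, 2.88 and 2.05 around starts and the Control 3.11, 0 and 0. The intervals of both groups overlapped those of Alyref in all 3 arrangements. In 3′ UTRs the interval of Alyref lay below that of Chtop only with replicate 3 left out. The values there were 2.72 in Alyref 3 (2.03 to 3.57) and 4.71 in Chtop 3 (3.61 to 6.03). With replicate 2 left out Alyref 2 had 3.56 (2.60 to 4.73) and Chtop 2 had 4.27 (3.14 to 5.66), which overlap. With replicate 1 left out the order was Alyref 1 with 2.66 above Chtop 1 with 2.22, again with overlapping intervals. In non-coding exons Nxf1 2 had 13.5 (10.5 to 17.04) and Control 2 had 12.01 (7.83 to 17.6), against 7.35 in Alyref 2 (6.29 to 8.52). With replicate 3 left out these values were 15.4 in Nxf1 3 (12.2 to 19.1), 18.3 in Control 3 (11.5 to 27.8) and 11.5 in Alyref 3 (9.74 to 13.4), with overlapping intervals. Outside annotated genes Nxf1 2 had 23.3 (19.5 to 27.7), above Alyref 2 with 12.5 (11.1 to 14.1), and Control 2 had 10.6 (6.92 to 15.5). With replicate 3 left out the 3 groups lay between 11.5 and 12.7, and with replicate 1 left out Alyref 1 had 18.4 (15.8 to 21.3), Control 1 had 10.2 (4.67 to 19.4) and Nxf1 1 had 1.96 (0.237 to 7.07). Bases in non-coding exons and outside genes, though listed for no other group by the rule, were thus met in a fresh Control library at a rate whose interval overlapped that of Alyref in all 3 arrangements.

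Coding sequence held the most Alyref-only bases. It took 45.8% of them (95% Wilson interval 45.0 to 46.7), non-coding exons 12.3%, introns 12.1%, 3′ UTRs 11.5%, sequence outside annotated genes 9.27% and 5′ UTRs 8.98% (8.50 to 9.48). Over the 79 bases with at least 2 tags in each library the order turned, with 8.86% in CDS and 26.6% in introns. Chtop-only bases differed most in 3′ UTRs, which took 43.7% of them (42.8 to 44.5), and had 37.4% in CDS and 4.96% in 5′ UTRs. Single-library Alyref bases had 40.6% in introns and 26.4% in CDS. Shared Alyref bases had 13.8% in CDS, 29.4% in non-coding exons and 28.3% outside genes. Over all bases of Alyref 2 and 3 CDS took 29.7% and 24.1%, and over those of the 3 Control libraries 3.94% to 20.9%. The 3′ UTRs took 12.2% to 13.3% of all bases in the Alyref libraries and 17.7% to 29.7% in the Chtop libraries. The Wilson intervals treat bases as independent draws, which bases of the same library and transcript are not.

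**Figure D2:**
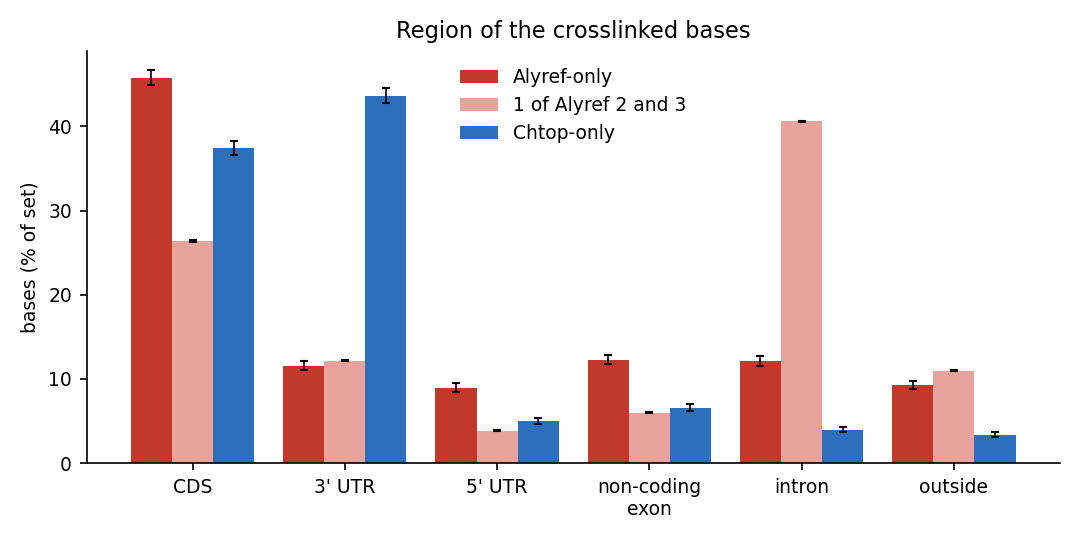
Percentage of crosslinked bases per annotated region for the 13208 Alyref-only bases, the single-library Alyref bases and the bases chosen likewise for Chtop, with 95% Wilson intervals. CDS is the highest bar of the Alyref-only bases at 45.8%, and the 3′ UTR that of the Chtop-only bases at 43.7%.

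Along the exons of protein-coding genes Alyref-only bases lay early, and in shorter internal exons than Chtop-only bases. In canonical transcripts of at least 3 exons, 14.8% of the exonic bases were in the first exon (14.05 to 15.6), 67.7% in a middle exon and 17.4% in the last (16.6 to 18.3). Chtop-only bases had 7.21%, 35.3% and 57.5%, and single-library Alyref bases 9.45%, 59.8% and 30.7%. The median relative position along the spliced transcript was 0.215 for Alyref-only bases, 0.338 for single-library Alyref bases and 0.534 for Chtop-only bases. Over all bases of a library the last exon held 30.2% to 32.5% in Alyref and 48.9% to 53.3% in Chtop. Nxf1 had 49.5% to 50.8% and the Control 35.0% to 52.2%. Library medians were 0.332 to 0.344 in Alyref, 0.469 to 0.492 in Chtop and 0.337 to 0.482 in the Control. Each rule dropped bases listed by the other group, which can widen this contrast, and its part was not tested. Middle exons under 100 nt held 28.8% of the Alyref-only bases in middle exons (27.57 to 30.03) and 5.67% of the Chtop-only bases (4.94 to 6.51). Middle exons of 500 nt or more held 3.79% and 39.2%. The median length of the middle exon was 130 nt for Alyref-only and 251 nt for Chtop-only bases. It was 144 nt for single-library Alyref, 148 nt for shared Alyref and 143 nt for Nxf1-only bases, so the Alyref-only value was near these. The same shares were taken in the 1753 genes with bases of both kinds. There the first exon held 12.4% of Alyref-only and 6.39% of Chtop-only bases, the last exon 18.1% and 56.9%, and middle exons under 100 nt 26.4% and 5.88% of the bases in middle exons.

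Around internal exon-exon junctions, Alyref-only bases gathered upstream. Of 2988 bases within 100 nt of a junction between exons of at least 100 nt, 33.5% lay in the window from -75 to -24 nt (31.8 to 35.2). The window held 23.8% of Chtop-only bases (21.8 to 25.9), 29.5% of single-library Alyref bases (29.3 to 29.7) and 32.3% of shared Alyref bases (29.04 to 35.7), whose interval overlapped that of the Alyref-only bases. Over all bases of a library it held 28.8% to 29.9% in Alyref, 25.02% to 25.6% in Chtop, 25.9% to 27.4% in Nxf1 and 25.7% to 29.2% in the Control. The smoothed profile of the Alyref-only bases was highest at -27 nt, just 5′ of where the exon junction complex is known to sit, and that of the Chtop-only bases at 37 nt downstream. Single-library Alyref bases peaked at -31 nt and shared Alyref bases at -23 nt, so an upstream peak was not particular to the Alyref-only bases. In the genes with both kinds the window shares were 33.3% (31.4 to 35.2) and 24.1% (22.0 to 26.4).

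**Figure D3:**
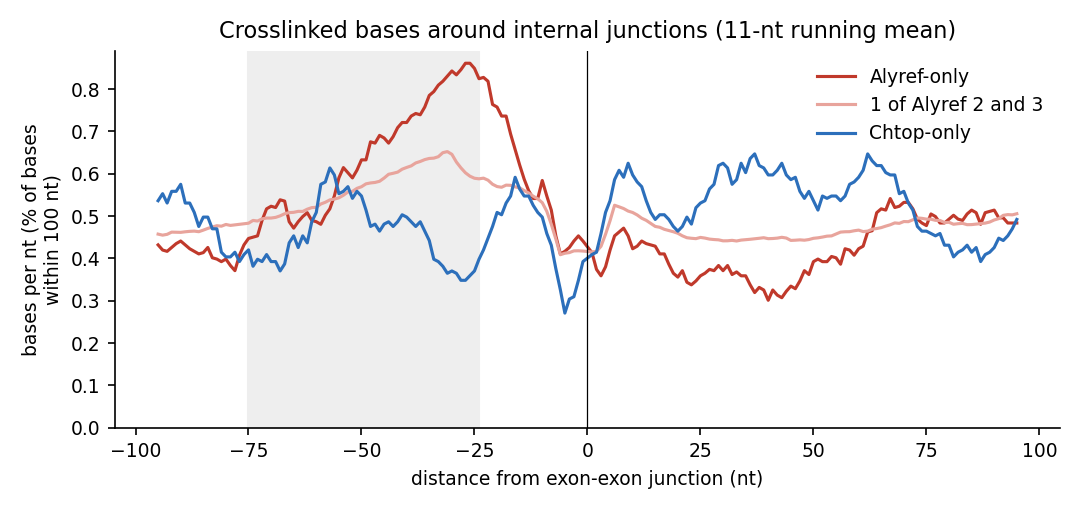
Crosslinked bases by distance from internal exon-exon junctions in nt, as percent of the bases within 100 nt, smoothed over 11 nt; the grey band is the window from -75 to -24 nt. The Alyref-only line peaks at -27 nt, while the Chtop-only line is highest at 37 nt downstream.

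Alyref-only bases were also frequent at transcript starts. Within 100 nt after the start of a canonical transcript lay 854 Alyref-only bases (6.47%, 6.06 to 6.90), against 1.12% of Chtop-only bases (0.9498 to 1.31), 1.94% of single-library Alyref bases and 1.80% of shared Alyref bases. The libraries as a whole had 1.84% to 2.25% there in Alyref, 1.04% to 1.06% in Chtop, 0.523% to 1.22% in Nxf1 and 0.330% to 1.64% in the Control. The most frequent single offset was -1, the base just before the annotated start, with 53 bases (0.401%, 0.307 to 0.524), against 7 Chtop-only bases (0.0539%). A cDNA that reached the first base of the transcript is listed at -1 under the assignment of the files. The 4 examples shown have the most Alyref tags and were chosen after their values were seen, with the listed base in capitals and the annotated start at the next letter.
HSP90AA1, chr14:102553368-102553387, minus: cgcgtCagttgcttcagcgt
SF3B1, chr2:198299739-198299758, minus: agcgcCagttccgtctgtgt
RPL10, chrX:153626712-153626731, plus: gagcgCctctttcccttcgg
SRSF10, chr1:24306804-24306823, minus: gtgtcTgaggctcggccgcc
HSP90AA1 encodes a cytosolic chaperone, SF3B1 a subunit of the splicing factor that recognises branch points, RPL10 a ribosomal protein and SRSF10 a splicing factor. The bases of HSP90AA1 and RPL10 had 0, 2 and 2 tags in Alyref 1, 2 and 3, that of SF3B1 1, 1 and 2, and that of SRSF10 0, 2 and 1. RPS16, among the bases with the most tags above, was hit at position 2 of its transcript, with 0, 5 and 2 tags.

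Intronic Alyref-only bases often lay at the very end of the intron. Of 1637 bases in introns of canonical transcripts, 258 (15.8%, 14.1 to 17.6) were 1 to 4 nt before the next exon, spread over 232 genes with at most 3 in a gene. This share was 1.90% (1.86 to 1.95) for single-library Alyref bases and 9.08% (7.07 to 11.6) for Chtop-only bases. Over all intronic bases of a library it was 1.73% to 2.72% in Alyref, 1.20% to 4.40% in Chtop, 0.710% to 0.825% in Nxf1 and 0.268% to 0.677% in the Control. The offset of 3 nt was the most frequent, with 103 bases, 41.7% of them cytosine and 49.5% thymine, followed by 1 nt with 76 bases. Of the former 4 with the most Alyref tags, chosen after their values were seen, show the end of the intron, with the listed base in capitals and the exon beginning 3 letters after it.
ASXL1, chr20:30955513-30955535, plus: gaccactttgcctaTagaaggta
DROSHA, chr5:31531627-31531649, minus: cgtgttaactattcAagacagct
GART, chr21:34904757-34904779, minus: ttactctgtctttaCagtgcaga
PABPC4, chr1:40037016-40037038, minus: cgccttgtctttgaCaggtggtg
A spliced read that begins at the first base of an exon has the last base of the intron as its genomic neighbour, and the deposited positions do not say whether a read was spliced. Such a neighbour lies at the offset of 1 nt, which held 76 of the 258 bases, and not at the more frequent offset of 3 nt. The part of spliced reads in these bases was not tested. In Alyref 1 only 3 of the 258 bases were listed, against 468 of all 13208 Alyref-only bases.

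**Figure D4:**
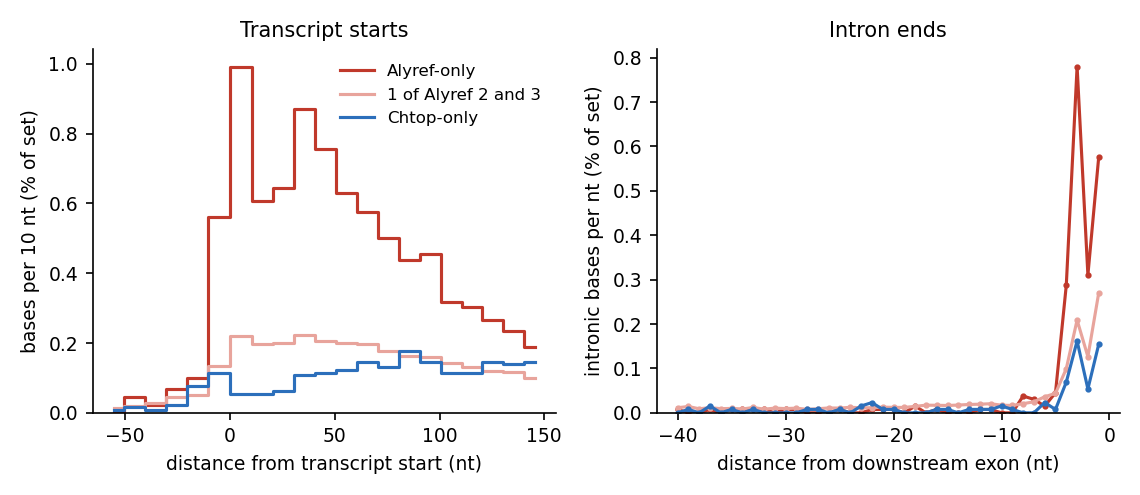
Left, crosslinked bases per 10 nt around the starts of canonical transcripts, in percent of each set; right, intronic bases by distance from the downstream exon, in percent of each set per nt. The Alyref-only line is the highest after the start, and at the intron end it peaks 3 nt before the exon, with 103 bases.

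The crosslinked base itself was uracil in 64.7% of the Alyref-only bases (63.9 to 65.5), cytosine in 14.1%, guanine in 12.9% and adenine in 8.28%. Uracil made up 71.9% of Chtop-only bases (71.1 to 72.6), 55.2% of shared and 54.5% of single-library Alyref bases, and 39.7% of Nxf1-only bases. The neighbours at -1 and 1 were uracil in 49.1% and 49.1%, and the mean over 15 nt on either side was 31.4%. The surroundings were richer in G and C around Alyref-only bases (45.8% over these 31 nt) than around Chtop-only (42.1%) or single-library Alyref bases (43.2%), and close to those around shared Alyref bases (46.5%). A run of at least 5 uracils within 10 nt was present at 15.8% of Alyref-only and 18.7% of Chtop-only bases. Uracil preference is a general property of UV crosslinking, and all 12 libraries had it, with uracil at 44.1% to 56.6% of their bases.

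Outside annotated genes the sequences had a feature in common that the rule did not use. The B box, searched as GGTTCGA followed by any 2 bases and C on both strands, is part of the internal promoter of transfer RNA genes, and the annotation used here lists no nuclear tRNA gene. A match on the same strand lay within 80 nt of 483 of the 1224 Alyref-only bases outside genes (39.5%, 36.8 to 42.2). Matches in the genome cover 0.0268% of all bases in this way. The share was 16.2% for shared Alyref bases outside genes (15.0 to 17.5), 13.9% for Nxf1-only (10.5 to 18.3), 1.47% for single-library Alyref (1.40 to 1.53) and 0.679% for Chtop-only bases (0.231 to 1.98), 3 of 442. Of the Alyref-only bases in annotated genes, 1.28% had a match. The 483 bases lay around 115 matches, with a median of 3 and at most 17 at a match, and 205 of them were on chromosome 6. Near-identical tRNA copies compete for unique mapping, so which copy is listed is uncertain, and a match describes the sequence only. Of 97 stretches with at least 5 members, 45 lay outside genes, 16 mainly in 5′ UTRs, 13 in CDS and 3 in XIST. By contrast 10241 bases (77.5%) had no other member within 15 nt.

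Alyref-only bases fell in many genes. In a single gene lay 10768 of them, in 3627 genes, of which 3311 were protein-coding and 171 long non-coding. Exactly 1 member was held by 1902 genes and at least 10 by 174, and the 20 genes with the most held 11.02% of the single-gene members. All but 13 of the 3627 genes had a tag of another group, so nearly all of these transcripts were crosslinked in other groups too. XIST, the non-coding RNA that coats the inactive X chromosome, held the most with 373, of which 15 were also listed in Alyref 1. Of all 13208 Alyref-only bases 468 were listed there. Over the whole gene XIST took 4465, 6416 and 6702 CPM (here per 1000000 of all tags) in Alyref 1, 2 and 3, 7099, 6620 and 7084 in Chtop, 11802, 3893 and 4349 in Nxf1, and 8836, 8128 and 6247 in the Control. The groups overlapped, and 238 bases of XIST were Chtop-only. NEAT1 followed with 67 Alyref-only and 62 Chtop-only bases, and MALAT1, another nuclear long non-coding RNA, had 38 and 48.

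Among protein-coding genes FANCA held the most members. FANCA, a DNA repair gene of the Fanconi anemia pathway (chr16:89793091-89883385, minus strand), had 61 Alyref-only and 14 Chtop-only bases, 45 of the former in CDS and 43 in middle exons. It took 1045, 1133 and 1056 CPM in Alyref, 595, 586 and 540 in Chtop, 492, 436 and 268 in Nxf1, and 1568, 472 and 270 in the Control, where the first value rests on 11 tags. Its Alyref libraries lay above all Chtop and Nxf1 libraries and inside the range of the Control. PRKDC, the catalytic subunit of a DNA repair kinase, had 59 and 48, KNTC1, a kinetochore gene, 47 and 22, and IARS1, the isoleucyl-tRNA synthetase, 44 and 9. In the RNA helicase genes DDX17 and DDX5 the counts were 58 and 88, and 38 and 26. Among the 20 genes with the most members, Chtop-only bases outnumbered the Alyref-only ones most in ZNF711, a zinc-finger gene, with 46 against 290, and in SRRM2, a splicing scaffold, with 32 against 212. Other genes among the first 20 were HNRNPH1, CCNL2, MARCHF6, HUWE1, LENG8, OGT, PIEZO1 and UBR4, each with 33 to 41 members. HNRNPH1, which encodes an hnRNP protein, had 13 of its 41 members in the 5′ UTR. Of the 487 genes with at least 5 members, 87 had no Chtop-only base and 110 had more Chtop-only than Alyref-only bases. Of all 3627 genes with a member, only 1753 also held a Chtop-only base, so lacking one was rarer in the 487.

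By function, gene lists are described by counts alone. Cytosolic ribosomal protein genes held 179 Alyref-only and 10 Chtop-only bases, and 51 of the 86 genes held a member. Per 100 tags of Alyref 2 and 3 in these genes there were 3.83 Alyref-only bases, and per 100 tags of Chtop 2 and 3 there were 0.598 Chtop-only bases. Over all genes the values were 1.07 and 1.48. A member needs the same base in 2 libraries, so values per 100 tags can rise with tag density, and dividing by tags does not remove this. All lists described here exceeded 1.07, the lowest being tubulins and actins with 1.24. The part of tag density was not tested. RPS4X, RPS24 and RPS16 led with 18, 17 and 15 Alyref-only bases against 0, 1 and 1, and 9 of the 15 in RPS16 were in its short 5′ UTR. The Alyref libraries had more tags than the Chtop libraries in the next 3 lists too, so the values per 100 tags are given beside the counts. Translation factor genes had 132 and 34 bases (2.13 and 0.993 per 100 tags), led by EIF4A2 with 26 against 4, EIF2S3 with 20 against 6 and EEF2 with 15 against 4. Glycolysis genes had 55 and 18 (2.43 and 1.63 per 100 tags), and ENO1 alone 20 against 5, with 9 of its 20 in the 5′ UTR. PKM had 11 against 7 and GAPDH 8 against 0. Chaperone genes had 77 and 37 (1.59 and 1.22 per 100 tags), led by HSP90B1 with 15 against 8.

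Among RNA-processing genes, those of hnRNP proteins had 191 Alyref-only and 99 Chtop-only bases (3.301 and 2.45 per 100 tags), and SR protein genes, which encode splicing regulators, 88 and 104 (3.47 and 4.44 per 100 tags). Within the latter SRSF11 had 19 against 42, SRSF5 18 against 6 and SRSF7 13 against 6. Genes of TREX and export factors had 19 and 22 (1.46 and 2.11 per 100 tags), with 16 of the 19 in THOC2, a scaffold subunit of TREX. CHTOP, whose transgene was expressed in the Chtop group, had 1 Alyref-only and 12 Chtop-only bases. It took 130 tags of Alyref 2 and 3 and 260 of Chtop 2 and 3. ALYREF, whose transgene was expressed in the Alyref group, held none, but it had only 26 and 14 tags in Alyref 2 and 3. Genes of the cap-binding and exon junction complexes had 28 and 31 (1.60 and 2.10 per 100 tags). They were led by ACIN1 with 10 against 17 and PNN with 10 against 1. Nuclear non-coding RNAs and snoRNA hosts had 161 and 122 (3.86 and 3.89 per 100 tags), and SNHG1 18 against 0. Tubulin and actin genes had 8 and 7 and histone genes 8 and 4, on 644 and 554 Alyref tags, which is 1.24 and 1.44 Alyref-only bases per 100 tags.

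To ask whether other proteins were crosslinked beside the Alyref-only bases, tags 1 to 15 nt from them were counted in each library, the bases themselves left out. They made up 4.55%, 2.99% and 2.95% of the tags of Alyref 1, 2 and 3, 3.28%, 2.30% and 2.35% in Chtop, 3.68%, 3.69% and 2.30% in Nxf1, and 4.87%, 3.41% and 2.67% in the Control. Replicate 1 was high in Alyref, Chtop and the Control. The Control thus had as large a share of its tags beside the Alyref-only bases as Alyref had, on means of 3.65% ± 1.12 (SD, n = 3) and 3.50% ± 0.917 (SD, n = 3), a pair not tested because Alyref chose the bases. Chtop fell short of the Control by 1.01 percentage points, with 2.64% ± 0.549 (SD, n = 3) (two-sided exact permutation test, p = 0.2, adjusted over 6 tests 0.4, smallest possible p 0.1). The difference of Nxf1 from the Control was -0.434 points (exact permutation p = 0.6, adjusted 0.72) and that of Chtop from Nxf1 -0.578 points (exact permutation p = 0.4, adjusted 0.6). None was larger than the spread between libraries, and 3 libraries against 3 could not have passed a threshold of 0.05. The rule dropped every base with a tag of Chtop, Nxf1 or the Control, and Chtop was the deepest of these groups. The choice of bases can thus lower the Chtop share the most, and its part in these differences was not tested.

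By class of base these shares differed in order. Beside Alyref-only bases in CDS lay 1.00% to 1.21% of Alyref tags, 0.794% to 0.864% of Chtop tags, 0.200% to 0.876% of Nxf1 tags and 0.117% to 0.986% of Control tags. Alyref was thus above every other library, but Control 1 came close, with 0.986% from 69 tags against 1.00% in Alyref 3. Alyref 2 and 3 chose the bases, so the place of Alyref in these orders is given without a test. In 3′ UTRs it was the reverse for Chtop, with 0.368% to 0.531% of Chtop tags against 0.271% to 0.324% of Alyref tags, 0.117% to 0.568% of Nxf1 tags and 0.0788% to 0.357% of Control tags. Beside those from the base before the start to 50 nt after it lay 0.140% to 0.176% of Alyref tags, 0.0396% to 0.0767% of Chtop tags and 0.0352% to 0.101% of Nxf1 tags, while the Control ranged from 0.0217% to 0.214%, its highest value being 15 tags of Control 1. In non-coding exons the Control was highest, with 1.27% to 1.74% against 0.626% to 1.12% in Alyref, and it was also highest in XIST, with 0.318% to 0.400% against 0.165% to 0.2505%. Near B box matches outside genes lay 0.169% to 0.524% of Alyref tags and 0.0410% to 0.194% of Chtop tags. Nxf1 had 0.136% to 0.499% there and the Control 0.196% to 0.343%. The ranges of Alyref, Nxf1 and the Control overlapped. That of Chtop lay just below the Control and overlapped those of Alyref and Nxf1.

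**Figure D5:**
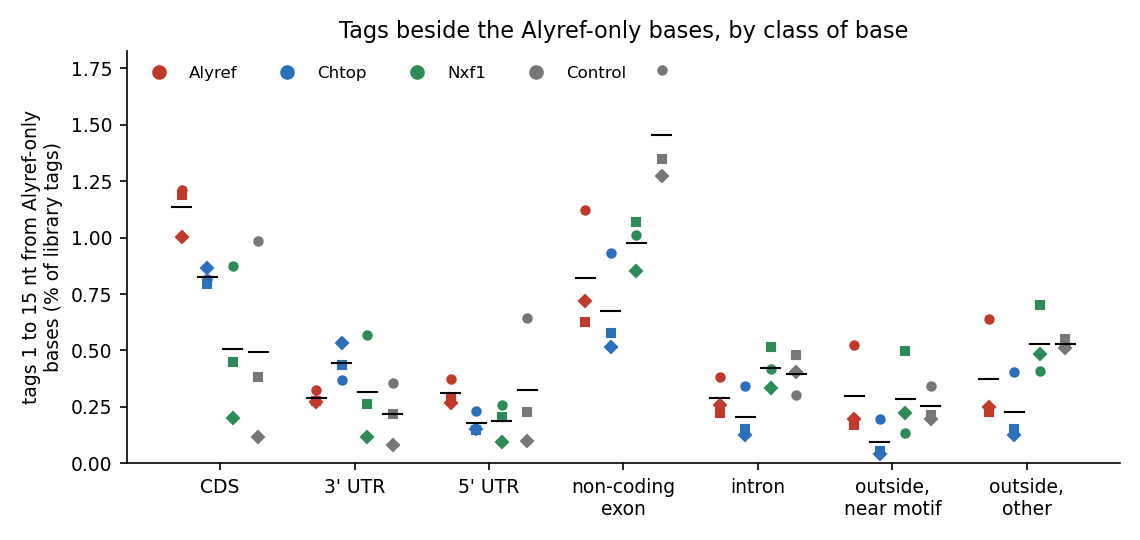
Tags 1 to 15 nt from Alyref-only bases as percent of the tags of each library, by class of base; each symbol is a library (circle replicate 1, square 2, diamond 3) and each black line the mean of 3. In CDS the Alyref libraries are the highest at 1.00 to 1.21, and in non-coding exons the Control libraries are, at 1.27 to 1.74. Alyref 2 and 3 chose the bases.

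The genes that held at least 5 Alyref-only bases took 14.3%, 15.2% and 13.7% of the tags of Alyref 1, 2 and 3, the bases themselves left out. They took 12.9%, 16.2% and 16.4% in Chtop, 15.7%, 11.2% and 7.59% in Nxf1, and 15.2%, 11.8% and 7.15% in the Control. Chtop exceeded the Control by 3.81 points and Nxf1 by 3.69 points (exact permutation p = 0.2 for each, adjusted 0.4). Between Nxf1 and the Control the difference was 0.127 points (exact permutation p = 1, adjusted 1). In these genes Nxf1 and the Control had their highest value in replicate 1, and no difference exceeded the spread between libraries.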

How the data were processed

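Crosslinked bases of 12 iCLIP libraries (3 each of Alyref, Chtop, Nxf1 and Control) were analysed, merged from 32 lane runs by the authors. The deposited values are counts, the number of deduplicated reads per base and strand. Per the methods and the submitters' processing notes, the authors removed phiX reads with Bowtie 1.1.2, extracted barcodes and removed duplicates with UMI-tools 0.5.3, and kept uniquely mapped reads of STAR 2.4.2a on hg19 with Ensembl 75 junctions. Because duplicates were collapsed by barcode, a tag stands for a cDNA, and all intervals cover counting error only. Files that merge the replicates of a group were not used, and unused columns of per-sample values numbered 0.

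Bases were annotated by strand with GENCODE release 44 mapped to GRCh37, with CDS taking precedence over UTRs, these over other exons and exons over introns. Junctions, starts and intron ends come from canonical transcripts of protein-coding genes, 19881 in all, with the first and last junction of a transcript left out. Gene counts took bases in a single gene. Shares of tags, recurrence and stretch CPM leave out mitochondrial tags, whereas gene CPM is per all tags of a library. The members, gene lists and comparison sets were chosen with earlier results of these data known. Named were the 20 genes, 10 bases and 5 stretches with the most members or tags, and up to 3 leading genes per list. Of these, 1 gene and 1 stretch are not reported here. Other named bases were picked after their values were seen, as stated beside them. Intervals are Wilson or exact (Clopper-Pearson) at 95%. Groups were compared by exact permutation over libraries, two-sided, with Benjamini-Hochberg adjustment over 6 tests. Nothing in the labels says that libraries of a group came from separate cultures, so p-values measure the spread between libraries. The functions were tested on simulated data. Python 3.11.15, numpy 2.4.6, pandas 2.3.3, scipy 1.17.1 and matplotlib 3.10.9 were used.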

Additional observations from a re-analysis of the deposited data

How the results depend on the processing

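The rule sets the number of bases. At least 2 tags in each of Alyref 2 and 3 left 79 bases, all 3 Alyref libraries 468, and no tag of another group within 2 or 5 nt 8694 or 6900. Leaving out each library gave 1937 (without Alyref 2) to 14903 bases, and 2125 without Alyref 3. The CDS share was 45.8%, but 8.86% with 2 tags in each and 51.2% with the 5 nt distance, and 35.3% to 45.8% on leaving out a library. The intron share of 12.1% became 26.6% and 16.1% under the same settings, 17.1% with canonical transcripts only, and 9.79% to 12.3% without a library. Uracil fell to 32.9% with 2 tags in each, and ranged from 59.6% to 65.4% without a library. The junction window share was 35.9% with exons of at least 200 nt and 28.8% to 33.6% without a library. Weighting bases by tags left all 4 shares inside their intervals. The recurrence of 3.72% in Alyref rose to 10.7% within 2 nt, and was 31.6% and 27.6% with the deeper replicates 2 and 3 held out.

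With the replicate block (sign flips of 3 pairs, smallest p 0.25) the exact permutation p was 0.25, 0.5 and 0.5 for tags beside the bases in Chtop minus Control (-1.01), Nxf1 minus Control (-0.434) and Chtop minus Nxf1 (-0.578), and 0.5, 1 and 0.5 for tags in their genes (3.81, 0.127 and 3.69). It changed no call. Replicate numbers share sequencing lanes in part, and deviations of same-numbered libraries correlated from -0.247 to 0.212, so they were not taken as pairs. Leaving out a library, these differences ranged from -1.50 to -0.403, -0.924 to 0.176, and -1.04 to -0.345 beside the bases, and from 1.70 to 5.73, -1.99 to 2.08, and 1.73 to 5.78 in the genes. Nxf1 minus Control turned to 0.0278 without Nxf1 3 and 0.176 without Control 1 beside the bases, and to -1.97 without Nxf1 1 and -1.99 without Control 3 in the genes. The cause was not tested. Other distances, thresholds on members per gene and scaling per tag of the gene kept all directions. Depth limits what absence means, since Control 1 held 7017 tags.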
